A study of Homo sapiens with 2 samples.

Results

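The genes that code for collagen chains were compared between A549-NICD1 and A549-Vector cells. They were chosen by name alone, as every row whose symbol is COL, a number, A and a number, which gave 44 of the 19198 gene rows used. They were grouped by the known structure of the proteins into 11 fibrillar chains, 6 type IV chains of basement membranes and 27 chains of other types. COL5A3, a fibrillar chain, was already known to be higher in A549-NICD1 when this family was chosen, so its difference is described here and supports nothing. The study asked which genes respond to Notch signaling in non-small cell lung cancer by sequencing polyA RNA. Both libraries carry the label of A549, an established human lung adenocarcinoma line. The A549-NICD1 cells overexpressed NICD1, the intracellular domain that is released when the NOTCH1 receptor is activated, and the A549-Vector cells carried the empty vector. According to the methods, the NICD1 reading frame was placed in a pSin-EF2 lentiviral vector, and whether the cells were a pool or a clone is not given in the sources used here. With 1 library for each condition, differences could not be set against a spread between replicates, and no p-value is given.

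Collagens are secreted proteins in which chains coded by separate genes wind around each other into a long helix. Fibrillar chains pack side by side into the fibrils that give tissues their tensile strength, and type IV chains form the sheet-like network under epithelia. The other types coat fibrils, form fine filaments, anchor a basement membrane to the tissue beneath it or span the cell membrane. In the lung, epithelial cells rest on a type IV network, while fibroblasts lay down most of the fibrillar collagen.

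The stretches of DNA upstream of the chains with the largest higher values in A549-NICD1, and between type IV genes that share an upstream region, are shown before the values. They are RefSeq sequences of the GRCh38.p14 assembly, and the submitters' processing notes name hg38. Of the 44 genes, 32 had an entry in the RefSeq promoter table. The motif TGGGAA, the core of the sequence read by RBPJ, the DNA-binding partner of NICD1, was searched on both strands in the 250 bases before each start. It was found in 20.8% of 35116 promoters, and 2.90% held it at least 2 times. COL5A3 lies at chr19:9959561-10010504 on the minus strand. The bases before its start, at chr19:10010505-10010754, hold the motif 2 times in reverse, 99 to 94 and 91 to 86 bases before the start, and the matches are in capitals.

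COL5A3: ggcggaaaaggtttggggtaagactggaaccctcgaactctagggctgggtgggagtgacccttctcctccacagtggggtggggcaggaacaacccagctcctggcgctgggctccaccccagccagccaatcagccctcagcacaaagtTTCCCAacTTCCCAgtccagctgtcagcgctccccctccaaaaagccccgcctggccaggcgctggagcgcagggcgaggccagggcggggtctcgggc

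COL12A1, a chain that coats fibrils, lies at chr6:75084326-75206053 on the minus strand. Its upstream bases, at chr6:75206054-75206303, hold 1 match in reverse, 144 to 139 bases before the start, and 1 forward match 45 to 40 bases before it, both in capitals.

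COL12A1: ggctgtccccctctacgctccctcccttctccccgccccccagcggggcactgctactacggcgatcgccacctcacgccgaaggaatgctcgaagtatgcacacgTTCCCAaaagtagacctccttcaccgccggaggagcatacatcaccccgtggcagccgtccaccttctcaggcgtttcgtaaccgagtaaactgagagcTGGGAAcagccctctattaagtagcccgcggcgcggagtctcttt

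The 32 genes with an entry had 44 promoters, of which 6 held the motif and 4 held it at least 2 times. By gene, 6 of the 32 held the motif, namely COL5A3, COL7A1, COL12A1, COL13A1, COL18A1 and COL21A1. Of these, COL5A3, COL7A1, COL12A1 and COL18A1 held it 2 times or more, and the log2 fold changes were -0.04 for COL7A1 and -0.21 for COL18A1. The longer form GTGGGAA was present in 5.43% of promoters and among the collagen genes in COL18A1. The E-box CAGGTG, a motif of the kind read by the repressor SNAI2, was present in 17.5% of promoters. Among the 44 collagen promoters it was in 5, those of COL4A3, COL4A4, COL8A2, COL9A2 and COL16A1. COL4A3 and COL4A4 share 1 site upstream of both starts, which is counted for each. These matches are descriptions of letters and do not show binding.

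The type IV genes lie in pairs that point away from each other. COL4A1 (chr13:110148963-110307157) and COL4A2 (chr13:110307284-110513209) are separated by 126 bases, and COL4A5 (chrX:108439838-108697545) and COL4A6 (chrX:108155614-108439458) by 379 bases. The bases between COL4A1 and COL4A2 and the 121 bases that lie within 250 bases of the starts of both COL4A5 and COL4A6, at chr13:110307158-110307283 and chrX:108439588-108439708 on the plus strand, are given with the letters CCAAT, or their reverse ATTGG, in capitals. CCAAT was present in 32.0% of all promoter windows of 250 bases before a start. The first stretch holds it 1 time and the second 2 times. For the remaining pair, COL4A3 and COL4A4, the 82 bases within 250 bases of both starts hold no CCAAT and 1 CAGGTG, and they are not printed because they lie inside the annotated COL4A4 gene.

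COL4A1 and COL4A2: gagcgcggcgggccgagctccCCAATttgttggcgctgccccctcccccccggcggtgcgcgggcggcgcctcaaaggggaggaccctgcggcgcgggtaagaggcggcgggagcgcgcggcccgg

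COL4A5 and COL4A6: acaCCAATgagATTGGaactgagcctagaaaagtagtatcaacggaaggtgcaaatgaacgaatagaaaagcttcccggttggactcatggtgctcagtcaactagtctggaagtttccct

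The authors deposited 1 value per gene and library, which behaved as FPKM, that is, reads divided by the length of the gene and by the depth of the library. The depths recovered from the values were 48602848 reads for A549-Vector and 48528434 reads for A549-NICD1. NOTCH1, which checks the labels, was at 5.40 FPKM in A549-Vector against 2865 FPKM in A549-NICD1. Of 11 genes known to mark A549 cells, 7 were under 1 FPKM in both libraries, and the keratin KRT7 and the fibrinogen chain FGB were listed at 0 in both. The keratin KRT18 was at 73.1 and 130 FPKM, ANXA1 at 11.1 and 11.4 FPKM and ALDH3A1 at 1.45 and 2.01 FPKM in A549-Vector and A549-NICD1. All 6 genes known to mark HEK293, a human embryonic kidney line, reached at least 1 FPKM in each library. The highest was CDKN2A, at 139 FPKM in A549-Vector against 138 FPKM in A549-NICD1. NEFL was at 33.47 and 31.86 FPKM and LIN28B at 31.9 and 28.99 FPKM in A549-Vector and A549-NICD1. Most A549 markers were thus low while every HEK293 marker listed was present, in both libraries. The name A549 is therefore used here only as the label of the libraries. The identity of the cells was not tested. The log2 fold change is the log2 ratio of reads plus 0.5 in A549-NICD1 over A549-Vector, after scaling that centred the median of all genes at -0.01. The range in brackets is its 95% counting interval. It covers counting error only, and no spread between cultures or preparations, because each condition has 1 library. It may also be too narrow for counting error, because reads that carry no molecular identifiers may be copies of the same molecule. In bulk RNA, fewer cells of a type and less RNA per cell cannot be told apart.

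Collagen transcripts were a small share of both libraries and were lower in sum in A549-NICD1. The summed level of the 44 genes was 235.5 FPKM in A549-Vector against 195.1 FPKM in A549-NICD1, a ratio of 0.828. They took 0.114% of the reads of A549-Vector and 0.0931% of those of A549-NICD1. Both shares could be higher, because the length behind COL4A1 is known only as a multiple of 1140 bases. All FPKM levels, their sums and these shares are unscaled, whereas the log2 fold changes carry a scaling factor of 0.964. That scaling would raise each A549-NICD1 sum. In each library 20 of the genes reached at least 1 FPKM, 22 were above 0 and under 1 FPKM in both, and COL1A2 and COL11A1 were listed at 0 in both. In A549-Vector the order of the levels was COL2A1, COL4A2, COL6A1, COL4A1 and COL6A2, and these 5 genes made up 61.4% of the summed level. In A549-NICD1 the order was COL4A1, COL6A1, COL4A2, COL2A1 and COL6A2, with 61.9% of the sum over the same genes. The plot of levels shows that most open and filled circles lie close together, while COL5A3, COL9A1, COL15A1 and COL12A1 are spread far apart. COL9A1 and COL15A1 rest on few reads.

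**Figure D1:**
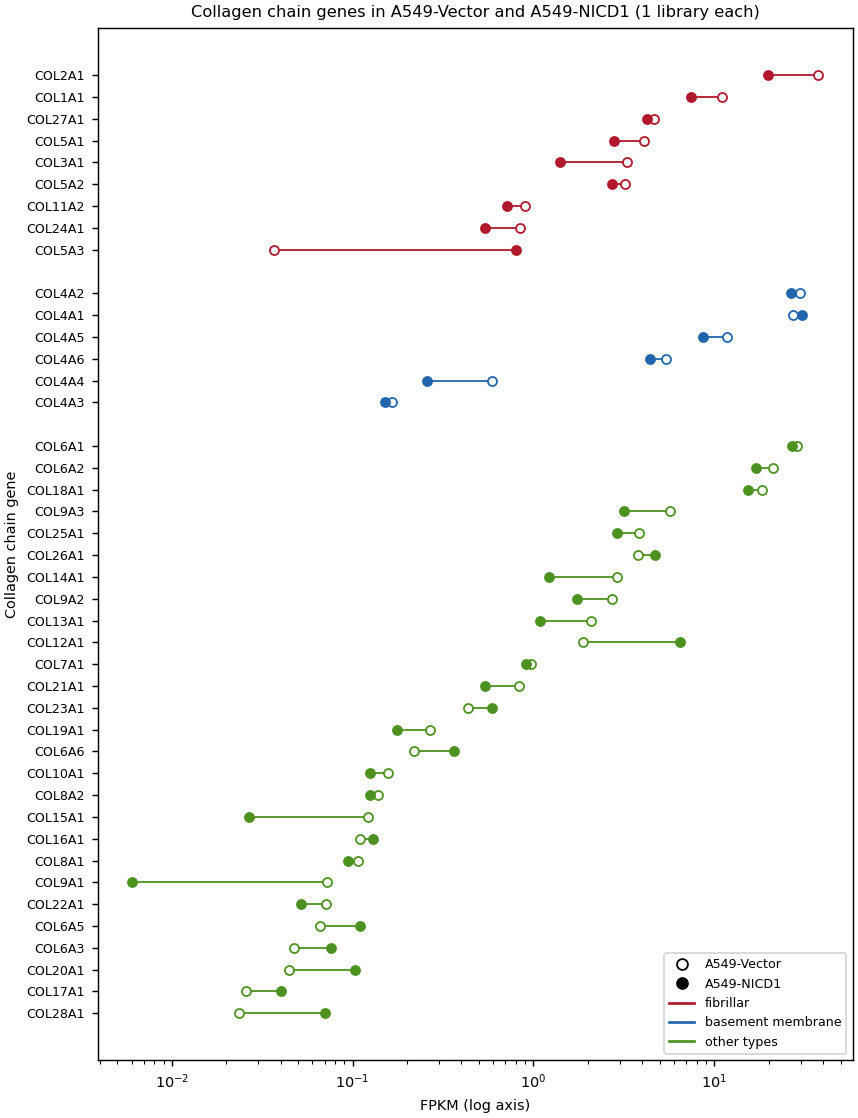
Level of each collagen chain gene above 0 in A549-Vector (open circles) and A549-NICD1 (filled circles), in FPKM on a log axis, 1 library each, by group in colour. COL5A3 lies at 0.0367 and 0.801 FPKM, whereas COL2A1, the highest in A549-Vector, lies at 37.6 and 19.9 FPKM.

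Of the 44 genes, 39 had at least 20 reads over both libraries. COL5A3, COL12A1 and COL20A1 had a log2 fold change above 1, beside 3.10% of the 14900 genes with as many reads. COL3A1, COL4A4, COL14A1 and COL15A1 were below -1, beside 1.75% of those genes. COL5A3 was known beforehand to be higher, so its place in the count above 1 supports nothing. COL5A3 and COL20A1, with 11 and 9 reads in A549-Vector, reached 20 reads only through A549-NICD1. COL15A1, with 7 reads in A549-NICD1, reached 20 reads only through A549-Vector. A log2 fold change below 0 was found for 29 of 39 collagen genes (74.4%), beside 51.0% of all genes, and above 0 for 10 of 39, beside 49.0%. Intervals lay wholly below 0 for 20 of the 39, beside 4325 of all 14900 genes. They lay wholly above 0 for 8, beside 4103 of all genes. The median log2 fold change of the 39 was -0.24. With depth as the only scaling, 29 of 39 were still below 0, but so were 61.0% of all genes. Among the 30 with at least 100 reads, 24 were below 0, beside 51.9% of all genes at that depth. Next to the limit of -1 lay COL4A4 at -1.12 outside it and COL2A1 and COL13A1, both at -0.87, inside it.

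**Figure D2:**
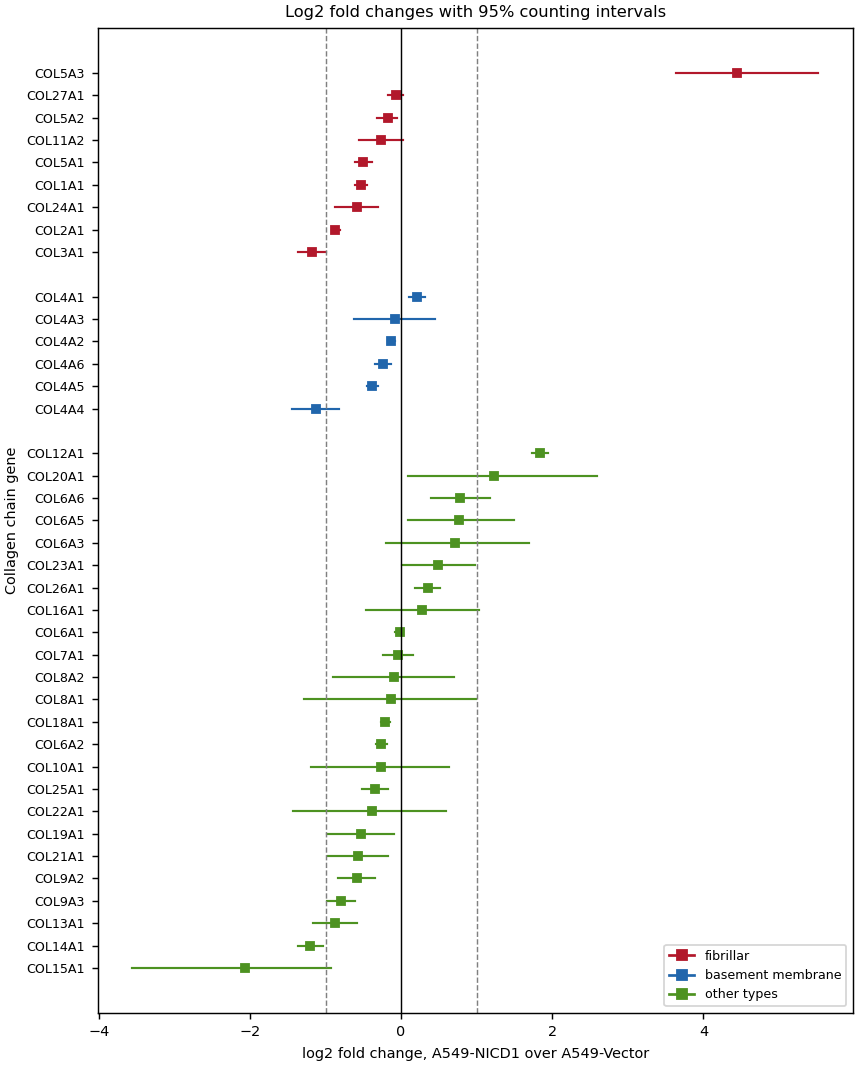
Log2 fold change of A549-NICD1 over A549-Vector for the 39 collagen chain genes with at least 20 reads, with 95% counting intervals as horizontal bars and dashed lines at -1 and 1. COL5A3 is at 4.44 and COL12A1 at 1.84, and 29 of the 39 squares lie left of 0.

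Among the fibrillar chains COL5A3 was above 1, beside 3.10% of all genes, and COL3A1 below -1, beside 1.75%. The summed level of the 11 chains was 65.7 FPKM in A549-Vector against 40.5 FPKM in A549-NICD1, a ratio of 0.617. Of the 9 with at least 20 reads, 8 had a log2 fold change below 0, beside 51.0% of all genes (61.0% with depth-only scaling). An interval wholly below 0 was found for 6 of the 9, beside 4325 of all 14900 genes, and the median log2 fold change was -0.50. COL2A1 held much of the difference in the sum, and without it the ratio was 0.734. The median without COL5A3 was -0.51.

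COL2A1, the chain of type II collagen that builds cartilage fibrils, was the most abundant collagen transcript of A549-Vector. It had 9111 reads there and 4811 reads in A549-NICD1, at 37.6 and 19.9 FPKM, and its log2 fold change was -0.87 [-0.92, -0.81]. Its share of the summed collagen level was 16% in A549-Vector against 10.2% in A549-NICD1. COL1A1, a chain of type I collagen, which is the main fibril of bone, tendon and skin, was at 11.1 FPKM in A549-Vector against 7.39 FPKM in A549-NICD1, with a log2 fold change of -0.53 [-0.61, -0.45]. Its partner chain COL1A2 had no reads in either library, and a count of 0 allows up to 3 reads. So the partner with which COL1A1 forms the usual type I helix was below detection in both. COL3A1, the chain of type III collagen of elastic and vascular tissue, was at 3.30 FPKM in A549-Vector against 1.40 FPKM in A549-NICD1. This was 2.26-fold lower in A549-NICD1, with a log2 fold change of -1.18 [-1.36, -1.0].

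Type V chains are minor chains that start and limit the width of type I fibrils. COL5A3 had 11 reads in A549-Vector against 240 reads in A549-NICD1, or 0.0367 and 0.801 FPKM. It was 21.7-fold higher in A549-NICD1, with a log2 fold change of 4.44 [3.64, 5.52], and stood at position 24 of the 14900 genes ordered from the highest. Its level in A549-NICD1 still remained under 1 FPKM. COL5A1 was at 4.08 FPKM in A549-Vector against 2.79 FPKM in A549-NICD1, with a log2 fold change of -0.50 [-0.61, -0.39]. COL5A2 was at 3.20 FPKM in A549-Vector against 2.71 FPKM in A549-NICD1, with a log2 fold change of -0.18 [-0.32, -0.05]. The COL5A3 transcript therefore took a larger share of the type V sum, which was 7.32 FPKM in A549-Vector against 6.3 FPKM in A549-NICD1. That share was 0.501% in A549-Vector against 12.7% in A549-NICD1, and the level of COL5A1 over that of COL5A3 was 111 in A549-Vector against 3.48 in A549-NICD1. An antisense gene, AC008742.1, overlaps 4% of the exon bases of COL5A3, and although the supplement describes the sequencing as strand-specific, whether the counting used strand is not given in the sources used here.

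None of the remaining fibrillar chains was beyond 1. COL24A1, a minor chain of developing bone, was at 0.845 FPKM in A549-Vector against 0.539 FPKM in A549-NICD1, with a log2 fold change of -0.59 [-0.88, -0.31]. COL11A2, a chain of type XI collagen in cartilage fibrils, was at 0.893 and 0.716 FPKM, and its interval of -0.56 to 0.03 held 0. COL27A1, a cartilage chain, was at 4.63 and 4.24 FPKM, and its interval of -0.17 to 0.02 held 0 as well.

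Chains of types II, IX and XI build the mixed fibrils of cartilage. Their summed level was 47.0 FPKM in A549-Vector against 25.5 FPKM in A549-NICD1, a ratio of 0.543. The 4 of the 6 genes with at least 20 reads were below 0, beside 51.0% of all genes, with a median of -0.69, and none was beyond -1. COL9A3 was at 5.70 FPKM in A549-Vector against 3.17 FPKM in A549-NICD1, with a log2 fold change of -0.79 [-0.98, -0.61]. COL9A2 was at 2.70 and 1.73 FPKM, with a log2 fold change of -0.59 [-0.83, -0.35]. COL9A1 had 12 reads in A549-Vector against 1 read in A549-NICD1, too few for the counts above, with a log2 fold change of -3.00 [-8.95, -0.77]. Among 9 chondrocyte markers, 6 of the 7 with enough reads were below 0, beside 51.0% of all genes, and none was beyond -1. Their median was -0.12, and the interval lay wholly below 0 for SOX5 and ACAN alone, beside 4325 of all 14900 genes. The regulator of COL2A1 in cartilage, SOX9, was at 6.26 FPKM in A549-Vector against 6.15 FPKM in A549-NICD1, and SOX5, which acts with it, at 2.03 and 1.23 FPKM. The summed level of these markers was 13.4 FPKM in A549-Vector against 11.8 FPKM in A549-NICD1, with HAPLN1 at 0 reads in A549-Vector against 2 reads in A549-NICD1. Their part in the lower collagen values was not tested.

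The plot against read depth places the collagen genes among all others. Of the collagen genes beyond 1 in either direction, COL12A1 had the most reads, 3984, and COL3A1 had 1255 reads. COL15A1, with 39 reads, and COL20A1, with 30 reads, had the fewest. The share of all genes beyond 1 at these depths was not computed.

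**Figure D3:**
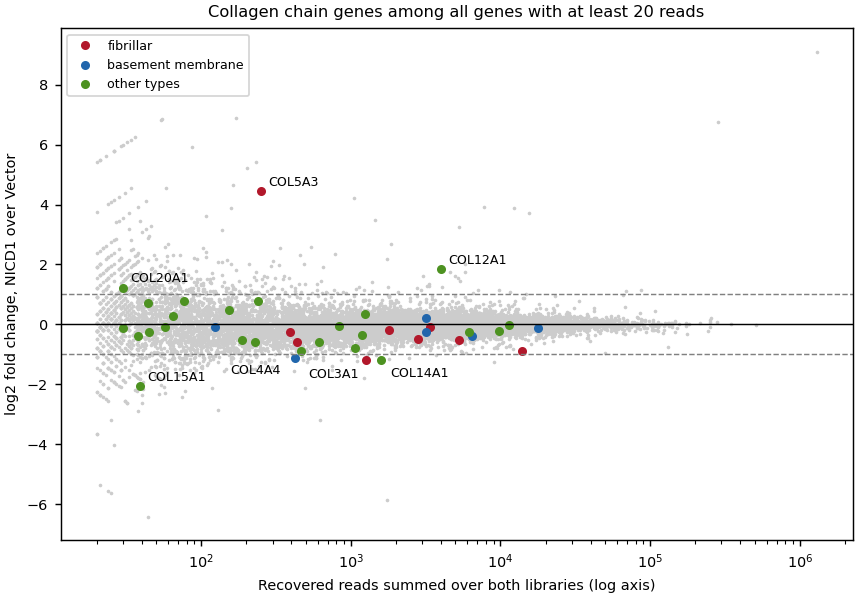
Log2 fold change against recovered reads summed over both libraries (log axis) for the 14900 genes with at least 20 reads (grey) and the collagen chain genes (coloured by group), with dashed lines at -1 and 1. The 7 collagen genes beyond the lines are named, from COL15A1 at -2.06 to COL5A3 at 4.44.

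The type IV chains form the basement membrane group. Their summed level was 75.2 FPKM in A549-Vector against 70.4 FPKM in A549-NICD1, a ratio of 0.936, and the median log2 fold change of the 6 was -0.18. COL4A4 was the only one beyond 1 in either direction.

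COL4A1 and COL4A2 code for the chains of the basement membrane network found in nearly all tissues, and the first of the intergenic stretches printed above lies between them. COL4A2 was at 29.98 FPKM in A549-Vector against 26.4 FPKM in A549-NICD1, with a log2 fold change of -0.13 [-0.17, -0.08]. COL4A1 was at 27.3 FPKM in A549-Vector against 30.4 FPKM in A549-NICD1, with a log2 fold change of 0.21 [0.11, 0.31]. So the intervals of these neighbours lay on opposite sides of 0, with a difference of -0.34 for COL4A2 minus COL4A1. The length behind the COL4A1 values is known only as a multiple of 1140 bases, so its reads could be higher by a whole factor, which leaves its fold unchanged and would narrow its interval. With depth as the only scaling the fold changes of all genes shifted by -0.05, which changed no sign among the collagen genes.

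COL4A3 and COL4A4 code for chains of the mature network of the kidney glomerulus and the lung alveolus. The genes are separated by 135 bases on chromosome 2, and the starts of their nearest promoter entries lie 419 bases apart. COL4A4 had 295 reads in A549-Vector against 130 reads in A549-NICD1, or 0.587 and 0.259 FPKM, with a log2 fold change of -1.12 [-1.44, -0.82]. COL4A3 had 65 and 59 reads, or 0.165 and 0.150 FPKM, with a log2 fold change of -0.08 [-0.62, 0.45]. The intervals of the neighbours did not overlap, and COL4A4 minus COL4A3 was -1.04. COL4A5 and COL4A6, which join in the network of smooth muscle and skin, lay between the other pairs in level. COL4A5 was at 11.7 FPKM in A549-Vector against 8.68 FPKM in A549-NICD1, with a log2 fold change of -0.38 [-0.45, -0.31]. COL4A6 was at 5.43 and 4.44 FPKM, with a log2 fold change of -0.24 [-0.34, -0.13]. The intervals of this pair overlapped.

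The chains that coat fibrils, called FACIT collagens, include members beyond 1 in both directions. Of the 9 with at least 20 reads, COL12A1 and COL20A1 were above 1, beside 3.10% of all genes. COL14A1 was below -1, beside 1.75% of all genes, and the median of the 9 was -0.53. Their summed level was 14.6 FPKM in A549-Vector against 13.6 FPKM in A549-NICD1.

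COL12A1, the chain of type XII collagen on the surface of type I fibrils under load, had 897 reads in A549-Vector against 3087 reads in A549-NICD1. It was at 1.88 and 6.47 FPKM, 3.58-fold higher in A549-NICD1, with a log2 fold change of 1.84 [1.73, 1.95]. It stood at position 140 of the 14900 genes and moved from the position 20 among the collagens by level to the position 9. COL14A1, its close relative on the surface of the same fibrils, went the other way. It had 1125 reads in A549-Vector against 472 reads in A549-NICD1, or 2.89 and 1.22 FPKM, 2.29-fold lower, with a log2 fold change of -1.20 [-1.36, -1.04]. The intervals of these related chains were far apart. COL20A1 had 9 and 21 reads, with a log2 fold change of 1.23 [0.09, 2.59] that rested on few reads.

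COL9A3 and COL9A2, given above, belong to this class as well, and the members other than these and COL12A1 and COL14A1 were under 1 FPKM in both libraries. COL21A1 had 139 reads in A549-Vector against 90 reads in A549-NICD1, with a log2 fold change of -0.57 [-0.97, -0.18]. COL19A1 had 113 and 75 reads, with a log2 fold change of -0.53 [-0.98, -0.10]. The intervals of COL16A1, with 30 and 35 reads, and of COL22A1, with 22 and 16 reads, held 0.

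Type VI collagen forms the beaded filaments around cells from COL6A1 and COL6A2 with 1 of several long chains. COL6A1 was at 28.5 FPKM in A549-Vector against 27.0 FPKM in A549-NICD1, and its interval of -0.08 to 0.03 held 0. COL6A2 was at 21.1 and 17.0 FPKM, with a log2 fold change of -0.26 [-0.33, -0.19]. The long chains were scarce by comparison. COL6A3 had 17 reads in A549-Vector against 27 reads in A549-NICD1, with an interval of -0.20 to 1.69. COL6A5 had 29 and 48 reads, with a log2 fold change of 0.77 [0.09, 1.5]. COL6A6 had 90 and 149 reads, with a log2 fold change of 0.78 [0.40, 1.18]. None of the type VI genes was beyond 1, and the intervals of COL6A1 and COL6A3 held 0.

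**Figure D4:**
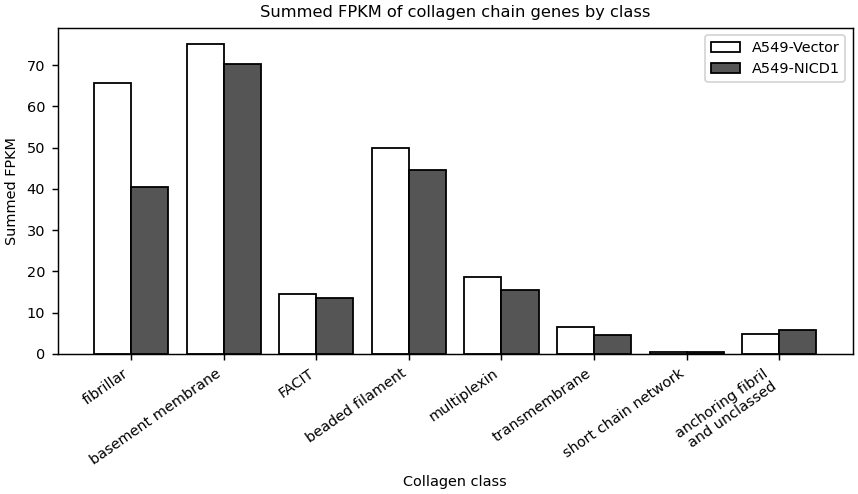
Summed level of the collagen chain genes of each class, in FPKM, in A549-Vector (white bars) and A549-NICD1 (grey bars), 1 library each and without error bars. The fibrillar bars stand at 65.7 and 40.5 FPKM, whereas the type IV bars stand at 75.2 and 70.4 FPKM.

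Multiplexins are basement membrane collagens whose ends can be cut off as antiangiogenic fragments. COL18A1, the source of endostatin, was at 18.4 FPKM in A549-Vector against 15.4 FPKM in A549-NICD1, with a log2 fold change of -0.21 [-0.27, -0.15]. Exons of SLC19A1 on the opposite strand, at 41.6 and 41.9 FPKM, overlap 16.4% of its exon bases, and the setting of the counting, which decides whether reads of the pair are told apart, is not given in the sources used here. COL15A1 had 32 reads in A549-Vector against 7 reads in A549-NICD1, with a log2 fold change of -2.06 [-3.56, -0.93]. It was the lowest value among the 39 genes and rested on few reads.

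Of the 4 collagens that span the cell membrane, 3 had enough reads and none of these was beyond 1. COL13A1, a chain of cell adhesion sites, was at 2.07 FPKM in A549-Vector against 1.09 FPKM in A549-NICD1, with a log2 fold change of -0.87 [-1.16, -0.59]. COL25A1, a chain of neurons, was at 3.84 and 2.90 FPKM, with a log2 fold change of -0.35 [-0.52, -0.18]. COL23A1 was on the other side, at 0.437 and 0.592 FPKM, with a log2 fold change of 0.49 [0.01, 0.98]. COL17A1, the chain of hemidesmosomes that holds skin epithelium to its basement membrane, had 7 and 11 reads, too few for the counts.

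COL7A1, the chain of the anchoring fibrils below that membrane, was at 0.967 FPKM in A549-Vector against 0.908 FPKM in A549-NICD1, and its interval of -0.24 to 0.16 held 0. COL26A1 was at 3.79 and 4.68 FPKM, with a log2 fold change of 0.36 [0.19, 0.52]. COL28A1 had 4 and 12 reads, too few for the counts. The network-forming short chains were near the floor. COL8A1 had 16 and 14 reads, COL8A2 had 30 and 27 reads, and COL10A1, the chain of hypertrophic cartilage, had 25 and 20 reads. The intervals of these 3 genes held 0.

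A collagen chain is hydroxylated, folded, exported, trimmed and cross-linked by proteins that serve many chains at once. Of 66 genes with these roles or that bind or cut collagen, 62 had at least 20 reads. ITGA10 and MMP13 were above 1, beside 3.10% of all genes, P4HA3 and TIMP4 were below -1, beside 1.75%, and the median was 0.02. MMP13, with 3 reads in A549-Vector, reached 20 reads only through A549-NICD1. P4HA3, with 12 reads in A549-NICD1, reached 20 reads only through A549-Vector, and TIMP4, with 18 and 3 reads, only as a sum. A share of 2 in 62 above 1 is near that of all genes. The synthesis genes had a median of 0.02 over 27 genes, and 16 of them were above 0, beside 49.0% of all genes.

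P4HB, the subunit that retains prolyl hydroxylase in the endoplasmic reticulum, was at 202 FPKM in A549-Vector against 234 FPKM in A549-NICD1, with a log2 fold change of 0.27 [0.24, 0.29]. SERPINH1, the chaperone of folded collagen, was at 72.8 and 81.3 FPKM, with a log2 fold change of 0.21 [0.17, 0.26]. FKBP10, a prolyl isomerase that acts with it, was at 87.2 and 90.4 FPKM, with a log2 fold change of 0.10 [0.07, 0.14]. On the FPKM scale, each of these helpers was at a higher level than any collagen chain in either library. PPIB, another isomerase, was at 55.9 and 74.2 FPKM, with a log2 fold change of 0.46 [0.39, 0.54]. COLGALT1, which attaches sugar to hydroxylysine, was at 48.7 and 50.6 FPKM. P4HA3, an alternative catalytic subunit, had 26 reads in A549-Vector against 12 reads in A549-NICD1, with a log2 fold change of -1.03 [-2.18, -0.02].

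Maturation genes had a median of 0.03 over 15 genes. FURIN, which cuts precursors of many secreted proteins, was at 35.1 FPKM in A549-Vector against 47.9 FPKM in A549-NICD1, with a log2 fold change of 0.50 [0.46, 0.54]. BMP1, which removes the end piece of fibrillar chains, was at 8.75 and 10.6 FPKM, with a log2 fold change of 0.32 [0.22, 0.43]. The median of the 5 cross-linking enzymes was -0.05. LOXL2, an oxidase that links chains, was at 6.52 and 5.33 FPKM, with a log2 fold change of -0.24 [-0.36, -0.11]. LOX, the oxidase that founded the family, was at 6.33 and 4.70 FPKM, with a log2 fold change of -0.38 [-0.49, -0.26]. None of the maturation genes was beyond 1.

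Receptors of collagen had a median of 0.13. ITGA10, an integrin chain that binds cartilage collagen, was at 0.217 FPKM in A549-Vector against 0.476 FPKM in A549-NICD1, with a log2 fold change of 1.18 [0.71, 1.68]. DDR1, a receptor kinase activated by collagen, was at 16.3 and 23.8 FPKM, with a log2 fold change of 0.60 [0.53, 0.67]. ITGB1, the shared partner of the collagen-binding integrin chains, was at 78.7 and 66.1 FPKM, with a log2 fold change of -0.20 [-0.23, -0.16]. The degradation genes had a median of -0.34. MMP13, a collagenase of cartilage, had 3 reads in A549-Vector against 20 reads in A549-NICD1, with a log2 fold change of 2.61 [1.04, 5.19]. TIMP4, an inhibitor of such proteases, had 18 and 3 reads, with a log2 fold change of -2.35 [-4.94, -0.75]. Both rested on few reads, whereas TIMP1, the most abundant inhibitor, was at 50 and 51.8 FPKM. MMP1 and MMP8, the other secreted collagenases listed, had no reads in either library.

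**Figure D5:**
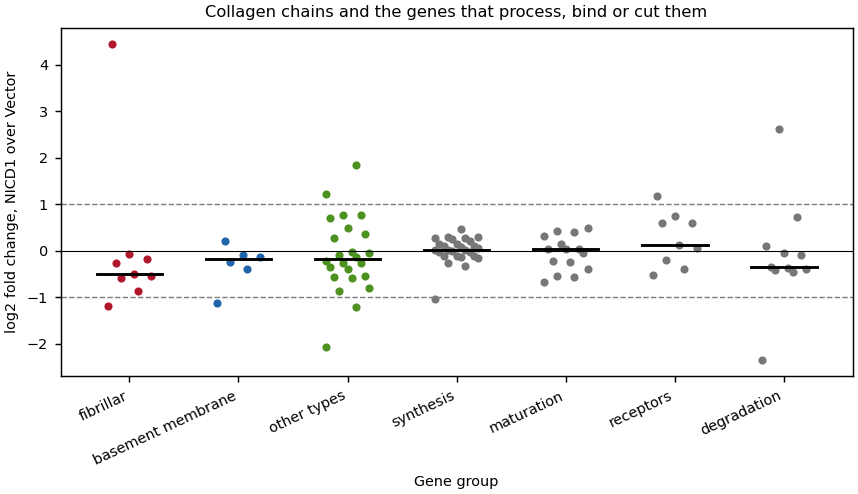
Log2 fold change of A549-NICD1 over A549-Vector for collagen chain genes (coloured) and for genes of collagen synthesis, maturation, binding and degradation (grey) with at least 20 reads. Horizontal bars are group medians, which are -0.50 for fibrillar, -0.18 for type IV and 0.02 for synthesis genes.

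Markers of fibroblasts, the main makers of fibrillar collagen, were mixed in level. Of 10 genes, 7 were under 1 FPKM in both libraries, and 3 reached at least 1 FPKM in each, with FBN1, which codes for fibrillin, the highest at 5.66 and 5.54 FPKM, TAGLN at 3.997 and 3.806 FPKM and ACTA2 at 1.87 and 1.35 FPKM. Their summed level was 13.6 FPKM in A549-Vector against 12.4 FPKM in A549-NICD1, and none of the 8 with enough reads was beyond 1, with a median of -0.03. FAP was listed at 0 in both, and DCN, which codes for decorin, had 2 reads in A549-Vector against 4 reads in A549-NICD1. PDGFRA, a growth factor receptor, was at 0.907 and 0.499 FPKM, with a log2 fold change of -0.80 [-1.24, -0.38]. The intervals of PDGFRB, at 0.44, and THY1, at 0.62, held 0. The part of these markers in the lower fibrillar values was not tested.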

How the data were processed

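PolyA RNA of 1 A549-NICD1 and 1 A549-Vector library was sequenced, and the authors deposited 1 FPKM value per gene, a unit read from the values. The submitters' processing notes name Bowtie2, HTSeq and hg38. The paper's supplement describes strand-specific sequencing, while the annotation and the strand setting of the counting are not given in the sources used here. Of 19225 rows, 27 named by date numbers were left out. Whole reads were recovered from the values for 17176 of 17178 genes above 0, with depths of 48528434 (A549-NICD1) and 48602848 (A549-Vector) and lengths chosen near GENCODE 29 transcripts, a rule tuned with the reads of the paper's supplement in view. Recovered reads sum to 98.1% and 98.0% of depth. NOTCH1 and RFC4 took 3.25% of the A549-NICD1 reads and 0.0106% of the A549-Vector reads, so the depths were scaled with a trimmed mean over the log ratios of all genes (factor 0.964). Intervals are Clopper-Pearson. Genes needed 20 reads over both libraries, and a log2 fold change beyond 1 was the size rule. All collagen genes were named, and from other lists those beyond 1 and at most 3 by level, while MMP1, MMP8, KRT7, FGB, FAP, DCN, PDGFRA, PDGFRB, THY1, ACAN, HAPLN1, PECAM1 and CDH5 were named after their values were seen. Members and lists were chosen with earlier results of these data known. Methods were tested on simulated data. Python 3.11.15, NumPy 2.4.6, SciPy 1.17.1 and Matplotlib 3.10.9 were used. Alternatives covered scaling, pseudocount, read choice and filters.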

Additional observations from a re-analysis of the deposited data

How the results depend on the processing

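The pseudocount decided how many collagen genes lay past a log2 fold change of 1, because many chains are under 1 FPKM. With a pseudocount of 0.1 FPKM, 2 collagen genes were below -1 (4 with 0.5 reads), and with 1 FPKM 0 were below -1 and 1 was above 1 (3 with 0.5 reads). With 1 FPKM the fibrillar median was -0.24, COL12A1 was at 1.42 and COL5A3 at 0.82, and with 0.1 FPKM COL5A3 was at 2.77. No collagen gene changed sign under any scaling, pseudocount or choice of reads, and 29 of 39 stayed below 0 under the scalings. Of the synthesis, maturation, receptor and degradation genes, 2 were above 1 and 2 below -1. The count above 1 was 1 with 0.1 FPKM, 0 with 1 FPKM and 1 with at least 100 reads, and the count below -1 was 1 with 5 reads, 1 with 0.1 FPKM, 0 with 1 FPKM, 1 with the smallest lengths and 0 with at least 100 reads. The fibrillar group without COL5A3, the fibrillar sum without COL2A1 and all settings for these 66 genes were chosen after seeing the data. For want of replicates none could be left out. No paired analysis was possible because both arms hold 1 library.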

Other observations

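Markers of endothelial cells, which also make type IV and type XVIII collagen, were under 1 FPKM in both libraries. Of 5 listed, 3 had enough reads. TEK, an angiopoietin receptor, had 12 reads in A549-Vector against 60 reads in A549-NICD1, with a log2 fold change of 2.33 [1.47, 3.41]. KDR, a receptor of vascular endothelial growth factor, had 86 and 43 reads, with a log2 fold change of -0.94 [-1.51, -0.40]. VWF, the von Willebrand factor, had 20 and 8 reads, with a log2 fold change of -1.21 [-2.66, -0.02]. Among those with too few reads, PECAM1 had 0 reads in A549-Vector against 9 reads in A549-NICD1. CDH5 went the other way, with 9 reads in A549-Vector against 2 reads in A549-NICD1. The summed level of the list was 0.437 FPKM in A549-Vector against 0.473 FPKM in A549-NICD1.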
